A study of Rattus norvegicus with 30 samples.

Results

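The chloride intracellular channel (CLIC) family of the rat was followed in RNA sequencing of CD31+ lung cells. Its members were the rows of the gene table named Clic1 to Clic6, 6 of 30562 rows, and all 6 were among the 16171 genes that passed the filter on low counts. Wild-type rats had a sham or a Glenn operation and ate a diet that was control, deficient or in excess for vitamin A, and lung cells were taken with CD31 microbeads 3 weeks after surgery. The Glenn operation joins a caval vein to the pulmonary artery, so that venous blood reaches the lung without passing through the liver first. The 6 groups were sham control, sham deficient, sham excess, Glenn control, Glenn deficient and Glenn excess, with 5 libraries each. The labels do not say whether each library came from its own animal, so p-values measure the spread between these libraries only, which may in part be technical.

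CLIC proteins are relatives of the glutathione S-transferases and glutaredoxins. They occur as soluble proteins in the cytoplasm and also at membranes, where they have been described as chloride channels, and several of them bind the cortical actin cytoskeleton through ezrin, radixin and moesin. In endothelial cells CLIC1 and CLIC4 are known for roles in tube formation and in signalling downstream of sphingosine-1-phosphate, and CLIC4 has been linked to pulmonary hypertension through loss of the BMP receptor BMPR2.

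The family was chosen by the surgery change of Clic2, measured in these same libraries. The surgery values of all 6 genes are therefore given as descriptions, with fitted log2 changes and standard errors (SE) and without a p-value. Tests are given for diet, for the dependence of the surgery change on diet, and for other properties of the libraries. Levels are in CPM, meaning counts scaled by TMM to a library total of 1 M, with mean ± SD over the 5 libraries of a group, or over the 15 libraries of an operation. CPM is not divided by gene length, so levels were not compared between genes.

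Library totals ran from 22 to 77.6 M estimated counts (median 40 M). The endothelial genes Pecam1 (863 to 1731 CPM), which encodes CD31, and Cdh5 (1557 to 2926 CPM) were high in all 30 libraries, while the leukocyte gene Ptprc had a median of 2.42 CPM. On the same leukocyte list, Cd68, Cd3e, Cd79a and S100a9 had medians of 4.53 CPM or less, and the lysozyme gene Lyz2, which type 2 alveolar cells are also known to express, stood at 8030 to 24447 CPM. Sftpc, a surfactant gene of type 2 alveolar cells, stood at 15062 to 36185 CPM, so the sorted cells carried epithelial RNA as well. In bulk RNA, fewer cells of a type and less RNA per cell cannot be told apart. The library numbers fall in separate ranges, called series A (22 libraries) and series B (8). The class I histocompatibility gene RT1-CE16 was low in 17 libraries (21.9 to 44.4 CPM) and high in 13 (407 to 949 CPM). All 5 sham excess libraries were low, all 8 series B libraries were high, and each of the other groups held 2 or 3 high libraries.

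Promoter sequence (the 250 bases before the gene start, RefSeq, GRCr8) was present for Clic3, Clic4 and Clic5. They are shown because no promoter sequence was available for the other members. With group means subtracted, r was 0.497 for Clic3 and Clic5, -0.518 for Clic3 and Clic4, and -0.085 for Clic4 and Clic5. Capitals mark the GC box GGGCGG or its reverse complement CCGCCC, the site of SP family factors, and all 3 are written 5′ to 3′ on the gene's strand.
Clic3, chr3:28670005-28670254, plus strand: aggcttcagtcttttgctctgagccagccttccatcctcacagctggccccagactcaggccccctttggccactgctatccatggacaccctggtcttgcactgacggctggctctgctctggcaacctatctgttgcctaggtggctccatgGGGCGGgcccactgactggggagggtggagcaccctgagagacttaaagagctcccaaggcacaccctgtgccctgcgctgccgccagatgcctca
Clic4, chr5:152797119-152797368, minus strand: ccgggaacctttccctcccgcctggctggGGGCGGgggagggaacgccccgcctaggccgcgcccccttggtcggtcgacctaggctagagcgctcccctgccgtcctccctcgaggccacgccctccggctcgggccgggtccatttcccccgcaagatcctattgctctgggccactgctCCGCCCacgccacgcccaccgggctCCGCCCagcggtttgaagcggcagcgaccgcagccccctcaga
Clic5, chr9:24310965-24311214, minus strand: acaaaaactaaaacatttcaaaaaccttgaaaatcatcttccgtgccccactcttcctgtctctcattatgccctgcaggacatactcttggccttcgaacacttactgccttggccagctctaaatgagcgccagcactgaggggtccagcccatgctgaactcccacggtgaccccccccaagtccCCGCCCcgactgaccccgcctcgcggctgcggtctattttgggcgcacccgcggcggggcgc
The GC box occurred 1 time before Clic3, 3 times before Clic4 and 1 time before Clic5, and 30.5% of 33469 promoters of this length held it. CpG pairs numbered 4, 26 and 15, against a median of 5 over all promoters. The letters AGGTCA (a nuclear receptor half-site of the kind retinoic acid receptors bind) and GGCGCC (a GC-rich SMAD element) were found on neither strand of the 3 windows, and 14.1% and 8.69% of all promoters held them. These are matches of letters in a short window and not binding sites.

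Clic2 was the member with the large response to surgery. CLIC2 is known for binding ryanodine receptors, the calcium release channels of the endoplasmic reticulum, and for lowering their activity. Clic2 (ENSRNOG00000000728) stood at 32.0, 38.8, 33.5, 32.3 and 46.4 CPM in sham control, at 29.1, 28.0, 27.7, 42.3 and 34.4 in sham deficient, and at 28.5, 32.1, 35.5, 30.5 and 23.7 in sham excess. After Glenn surgery it stood at 205, 167, 193, 200 and 155 CPM on the control diet, at 148, 202, 150, 274 and 210 on the deficient diet, and at 182, 178, 205, 186 and 235 on the excess diet. Every Glenn library lay above every sham library, also across diets. Glenn libraries lay wholly above sham libraries over all diets in 3.1% of the genes tested. Within the control, deficient and excess diet the groups stood apart, in either direction, in 17.2%, 19.6% and 16.3%.

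The mean of Clic2 was 33.0 ± 5.93 CPM over the 15 sham libraries and 193 ± 33.2 CPM over the 15 Glenn libraries, a ratio of 5.84. The fitted log2 change was 2.50 (SE 0.08) averaged over diets, 2.33 (SE 0.13) on the control, 2.66 (SE 0.13) under deficiency and 2.50 (SE 0.14) with excess. The surgery change did not differ detectably between diets (edgeR interaction test, adjusted p = 0.994). The averaged change lay between 2.46 and 2.55 in all 39 alternative fits. From the group means, the log2 ratio of Glenn over sham was 2.45 in series A (10 and 12 libraries) and 2.67 in series B (5 and 3), and it was 2.53 in RT1-CE16-low and 2.54 in RT1-CE16-high libraries. In libraries with high Ddx3y, a Y-linked gene, that ratio was 2.81 (6 sham, 7 Glenn), and in the others 2.36 (9 sham, 8 Glenn). The difference between these was not tested.

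**Figure D1:**
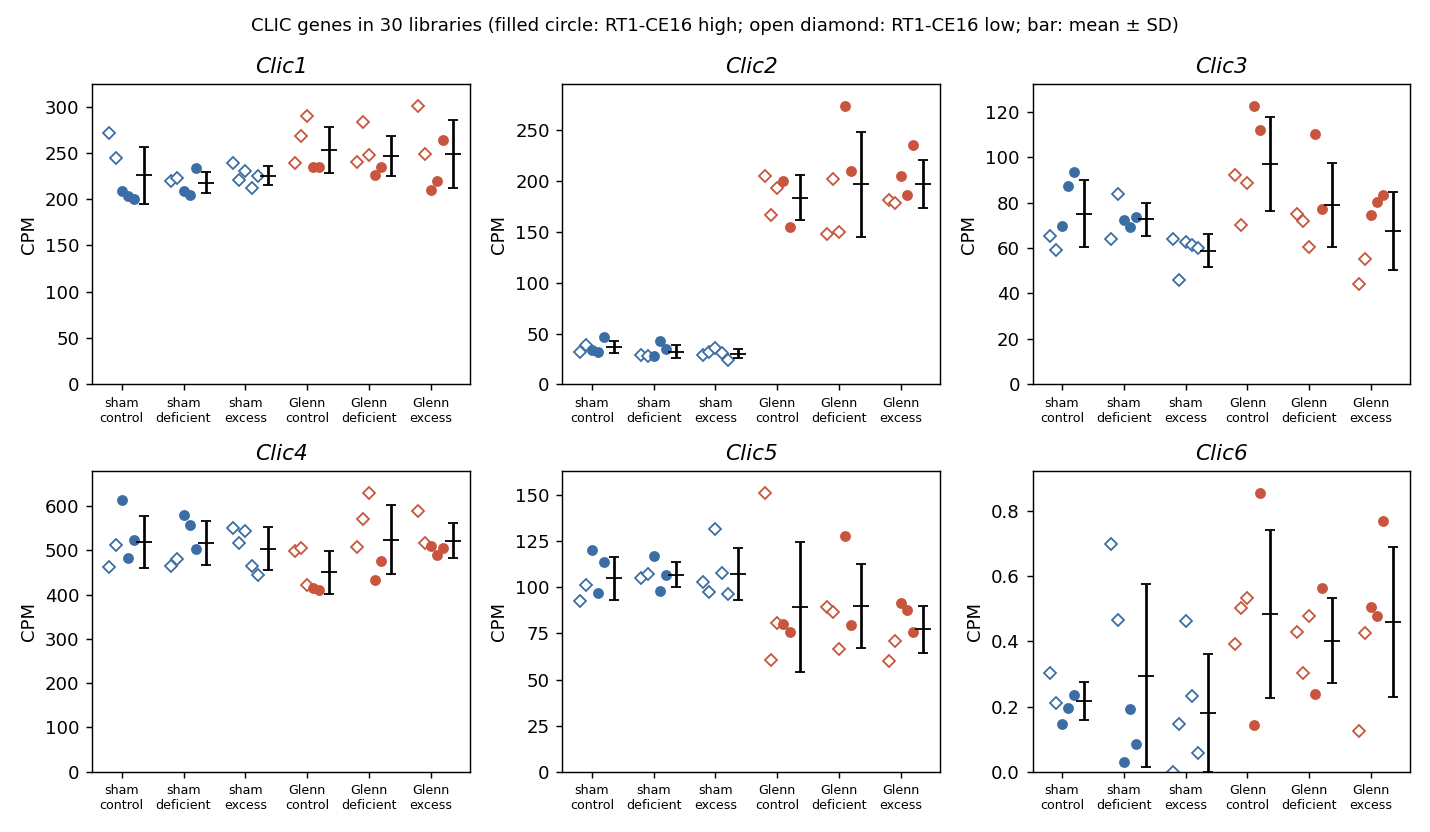
Level of each CLIC gene in CPM (vertical axis, starting at 0, a scale of its own per panel) in 30 libraries by group, sham in blue and Glenn in red. Filled circles are RT1-CE16-high and open diamonds RT1-CE16-low libraries, and bars give mean ± SD (n = 5). Clic2 runs from 23.7 to 46.4 CPM after sham and from 148 to 274 CPM after Glenn surgery, and the other members overlap between operations.

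Clic1 was slightly higher on average after Glenn surgery, with groups that overlapped on every diet. CLIC1 is a broadly expressed member that can insert into membranes upon oxidation. Clic1 (ENSRNOG00000029682) stood at 271, 245, 209, 203 and 200 CPM in sham control, 219, 223, 209, 204 and 233 in sham deficient, and 239, 221, 230, 212 and 225 in sham excess. It stood at 239, 269, 290, 235 and 234 CPM in Glenn control, 241, 283, 248, 226 and 235 in Glenn deficient, and 301, 249, 210, 219 and 264 in Glenn excess. The means were 223 ± 18.9 and 249 ± 26.4 CPM (SD, n = 15 each), and the fitted log2 change was 0.18 (SE 0.05), with 0.17, 0.15 and 0.23 on the control, deficient and excess diet (SE 0.09, 0.09 and 0.10). Estimated counts of Clic1 were not whole numbers in any of the 30 libraries, unlike those of the other members, as arises where reads that match several annotated sequences are shared out between them, so its level is less certain.

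Clic4 showed no common direction after surgery. CLIC4 is the member best known in endothelium, where it takes part in lumen formation. Clic4 (ENSRNOG00000018109) stood at 462, 511, 614, 482 and 522 CPM in sham control, 465, 480, 580, 558 and 504 in sham deficient, and 551, 517, 544, 464 and 444 in sham excess. It stood at 499, 506, 421, 415 and 410 CPM in Glenn control, 508, 572, 629, 432 and 476 in Glenn deficient, and 589, 516, 510, 490 and 505 in Glenn excess. The groups overlapped on every diet, with Glenn control lowest at 450 ± 48.2 CPM and the other 5 groups between 504 and 523 (n = 5 each). The fitted log2 change was -0.04 (SE 0.06) averaged over diets, and -0.20 (SE 0.10), -0.01 (SE 0.10) and 0.10 (SE 0.11) on the control, deficient and excess diet. The averaged value was 0.08 in series A alone.

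Clic5 was lower after Glenn surgery in most libraries. CLIC5 links membrane to actin through ezrin and its relatives, and is known from hair-cell stereocilia and from podocytes and endothelium of the kidney glomerulus. Clic5 (ENSRNOG00000047218) stood at 92.6, 101, 120, 96.9 and 113 CPM in sham control, 105, 107, 117, 98.0 and 107 in sham deficient, and 103, 97.4, 132, 108 and 96.6 in sham excess. It stood at 151, 60.7, 80.4, 80.0 and 75.8 CPM in Glenn control, 89.4, 86.8, 66.4, 128 and 79.4 in Glenn deficient, and 60.3, 70.8, 91.8, 87.7 and 76.0 in Glenn excess. One Glenn control library (151) and 1 Glenn deficient library (128) reached or passed the sham range, and the other 13 lay below every sham library. On the excess diet the groups did not overlap, as was so for 16.3% of all genes in either direction.

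The fitted log2 change of Clic5 was -0.36 (SE 0.10) averaged over diets, -0.23 (SE 0.17) on the control, -0.21 (SE 0.17) under deficiency and -0.63 (SE 0.19) with excess. Single libraries moved the control and deficient values. Without Glenn control replicate 1, the control value was -0.50 and the average -0.45, and without Glenn control replicate 2 the control value was -0.12. Without Glenn deficient replicate 4 the deficient value was -0.36, and without replicates 3 or 5 of that group it was -0.14 or -0.13. The interaction test did not show a difference between diets (edgeR adjusted p = 0.995).

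Clic3 overlapped between operations and spread widely within groups. CLIC3 has been described as a secreted oxidoreductase and in the recycling of integrins in cancer cells. Clic3 (ENSRNOG00000015184) stood at 65.4, 59.1, 69.6, 87.4 and 93.6 CPM in sham control, 63.8, 83.9, 72.4, 69.2 and 73.4 in sham deficient, and 63.9, 46.1, 62.4, 61.2 and 60.0 in sham excess. It stood at 91.9, 69.9, 88.8, 122 and 112 CPM in Glenn control, 74.9, 71.7, 60.6, 110 and 77.2 in Glenn deficient, and 44.0, 55.2, 74.6, 80.1 and 83.3 in Glenn excess. Sham and Glenn groups overlapped on every diet, and single groups ran from 44.0 to 83.3 CPM (Glenn excess) or from 69.9 to 122 CPM (Glenn control). The log2 change after surgery was 0.16 (SE 0.09) averaged over diets, with 0.37 (SE 0.15), 0.16 (SE 0.15) and -0.04 (SE 0.17) on the control, deficient and excess diet, and in series A alone the average was 0.019 and the deficient value -0.09.

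Clic6 was near the limit of detection. CLIC6, also called parchorin, is known from water-secreting epithelia. Clic6 (ENSRNOG00000026870) had 0 to 39 counts per library, with 1 library at 0 (sham excess replicate 1, where a count of 0 allows up to 0.0607 CPM, for counting error only) and 4 libraries at 3 counts or fewer. Its mean was 0.231 ± 0.188 CPM in sham and 0.449 ± 0.201 CPM in Glenn libraries, and the groups overlapped on every diet. The fitted log2 change was 1.11 (SE 0.43) averaged over diets and 0.47 (SE 0.69) on the deficient diet. In series A alone these were 0.42 and -0.53.

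By the same fit 4 of the 6 members passed an adjusted p of 0.05 for surgery averaged over diets (3 higher, 1 lower), where 48.2% of all genes did. On the control, deficient and excess diet 1, 1 and 2 members passed, where 24.9%, 27.4% and 21.9% of all genes did. As the choice of members used this contrast, nothing is read from these counts.

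**Figure D2:**
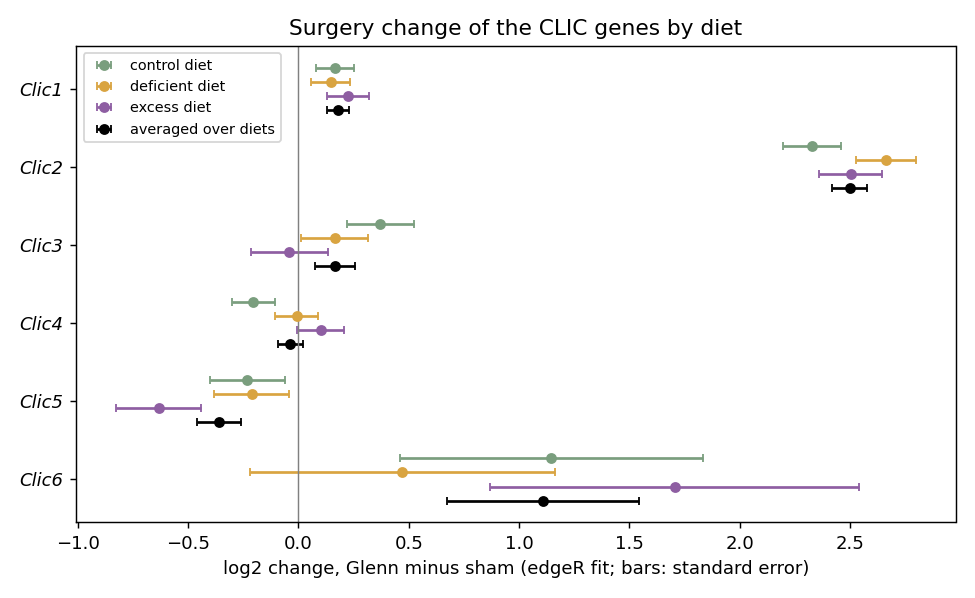
Fitted log2 change of each CLIC gene, Glenn minus sham (horizontal axis), by diet and averaged over diets, with bars for the standard error. Clic2 lies between 2.33 and 2.66 on all diets, Clic5 between -0.63 and -0.21, and the bars of Clic6 are wide.

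The summed level of the 6 genes was 944 ± 55.2 CPM in sham and 1108 ± 64.6 CPM in Glenn libraries. Of the family's counts, Clic2 held 3.49% ± 0.562 after sham (2.75% to 4.76%) and 17.4% ± 2.61 after Glenn surgery (13.0% to 23.4%). These shares restate the surgery values of Clic2, by which the family was chosen, on another scale. The level of Clic4 itself was 513 ± 48.9 CPM in sham and 498 ± 63.8 CPM in Glenn libraries, so its smaller share after Glenn surgery (45.0% against 54.2%) mainly follows from the larger sum.

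Vitamin A in the diet changed no member past the threshold in edgeR's joint tests of the 3 diets. After sham surgery 0 of 6 members passed (edgeR quasi-likelihood F test), and 0.0% of all genes did, although 1417 genes had an unadjusted p under 0.05 and DESeq2 called 202 genes and limma voom 43, none of them a member. The smallest p among members was that of Clic2 (unadjusted p = 0.0196, edgeR adjusted p = 0.437), whose group means were 36.6 ± 6.13, 32.3 ± 6.21 and 30.1 ± 4.40 CPM on the control, deficient and excess diet. After Glenn surgery 0 of 6 members passed by edgeR, where 0.538% of all genes did (87 genes, 1843 at an unadjusted p under 0.05). DESeq2 called 384 genes there, Clic3 among them, and limma voom 169, with no member. For the dependence of the surgery change on diet 0 of 6 members passed, where 0.00618% of all genes did (1 gene, 925 at an unadjusted p under 0.05). There DESeq2 called 35 genes and limma voom 5, none of them a member.

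Clic3 came nearest to the threshold for diet after Glenn surgery. Its means were 97.0 ± 20.6 CPM on the control, 78.9 ± 18.6 under deficiency and 67.5 ± 17.1 with excess (SD, n = 5 each), and the groups overlapped. The joint test gave an unadjusted p of 0.000671 (edgeR adjusted p = 0.0742). The result turned on the fit, with an adjusted p of 0.00689 in DESeq2, 0.0391 in series A alone, 0.0522 in limma voom and 0.454 in edgeR without the series term. Leaving out 1 library at a time gave 0.0241 to 0.392, and it passed without sham deficient replicate 2 (0.0241) or Glenn control replicate 2 (0.0322).

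The excess diet was then set against the control diet for Clic3 after Glenn surgery, a contrast added after its values were seen. Pairwise diet changes were planned only for members that passed the joint test, which Clic3 did not in edgeR. The adjusted p of this contrast does not account for that choice. The log2 change was -0.76 (SE 0.17, 95% interval -1.11 to -0.42, edgeR adjusted p = 0.0248), where 1.47% of all genes passed and 0.575% were lower. It was no longer past the threshold without the series term (-0.52, adjusted p = 0.226), without Glenn control replicate 4 (-0.69, 0.0683) or 5 (-0.71, 0.0760), or without Glenn excess replicate 1 (-0.62, 0.246) or 2 (-0.74, 0.0880). With the RT1-CE16 level as the term it was -0.61 (edgeR adjusted p = 0.0209). Among RT1-CE16-low libraries the means were 49.6 CPM on the excess diet (2 libraries) and 83.6 on the control diet (3), and among high libraries 79.4 (3) and 117 (2). Excess was thus the lower diet at either RT1-CE16 level. After sham surgery the same contrast was -0.35 (SE 0.15) and did not pass (edgeR adjusted p = 0.383). All 5 sham excess libraries were RT1-CE16-low, and among low libraries the sham means were 58.7 CPM with excess (5 libraries) and 62.3 on the control diet (2), a log2 ratio of -0.08. The interaction test for Clic3 did not show that the diets acted differently after the 2 operations (adjusted p = 0.996).

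No member passed for the library series (0 of 6, where 1.64% of all genes did), but 2 of 6 followed the RT1-CE16 level (1 higher, 1 lower), where 6.53% of all genes did (3.54% higher, 2.99% lower). This test was also added after the values were seen. Clic3 was higher in RT1-CE16-high libraries (log2 difference 0.40, SE 0.08, edgeR adjusted p = 0.00266), and Clic1 was lower in them (-0.19, SE 0.05, edgeR adjusted p = 0.0107). Leaving out 1 library gave 0.35 to 0.46 for Clic3 and -0.21 to -0.17 for Clic1. In Glenn excess, Clic3 stood at 44.0 and 55.2 CPM in the 2 low libraries and at 74.6 to 83.3 in the 3 high ones, and in Glenn control at 69.9 to 91.9 in 3 low and 112 to 122 in 2 high libraries. In sham deficient the order was not seen, with 63.8 and 83.9 CPM in low and 69.2 to 73.4 in high libraries. RT1-CE16 level and series overlap in these libraries, and what the level stands for was not tested. Clic2 (0.21, SE 0.09), Clic4 (-0.06, SE 0.06), Clic5 (0.13, SE 0.11) and Clic6 (-0.33, SE 0.45) did not pass (edgeR adjusted p = 0.159 to 0.728).

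Clic3 within either operation, and Clic5 within the Glenn libraries, varied with the markers of type 1 alveolar cells, the thin epithelium that lies against the capillaries. Of 6 such markers (Ager, Hopx, Aqp5, Rtkn2, Cldn18 and Pdpn), 5 rose after Glenn surgery and Hopx fell (log2 change -0.36, SE 0.08, edgeR adjusted p = 0.00085). Pdpn was also listed as a marker of lymphatic cells. Their summed level was 660 to 1099 CPM after sham (median 873) and 793 to 2047 after Glenn surgery (median 1298), and no marker was at 0 in all libraries. The 2 Glenn libraries with the highest Clic5 also had the highest sums, 2047 CPM in Glenn control replicate 1 and 1987 in Glenn deficient replicate 4. So Clic5 averaged lower after Glenn surgery while most of these markers averaged higher, and within the Glenn libraries both were high in the same ones.

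The relation was examined within each operation on log2(CPM + 1), as 4 relations chosen after the values were seen. Their p came from 100000 permutations and was adjusted by Benjamini-Hochberg (BH). With group means subtracted, the type 1 sum had the highest r of all marker lists for Clic5 (0.830) and for Clic3 (0.763). The 4 relations came from a wider set, Clic1 to Clic5 against every list, and BH over 4 does not adjust for that choice. Among the 15 Glenn libraries, Clic5 and the marker sum had a Pearson r of 0.904 (permutation p = 1e-05, the smallest that these permutations can give, BH 4e-05) and a Spearman rho of 0.761 (permutation p = 0.00134, BH 0.00179). Among the 15 sham libraries r was 0.441 (permutation p = 0.0992) and rho 0.411 (permutation p = 0.13), which did not pass. For Clic3, r was 0.764 after sham (permutation p = 0.00062, BH 0.00124) and 0.748 after Glenn surgery (permutation p = 0.00171, BH 0.00228), and rho was 0.811 in both (permutation p = 0.00054 and 0.00044, BH 0.00108). Without the 2 libraries farthest from the median sum, r was 0.882 for Clic5 after Glenn, 0.456 for Clic5 after sham, 0.778 for Clic3 after sham and 0.857 for Clic3 after Glenn surgery. Within series A and within each RT1-CE16 level (6 to 12 libraries each), r for Clic5 was 0.787 to 0.951 after Glenn and 0.213 to 0.481 after sham, and r for Clic3 was 0.704 to 0.742 and 0.588 to 0.832. Clic3 also varied with other marker lists. With group means subtracted, its r was 0.625 with the mesothelial sum (Msln, Upk3b, Wt1 and Lrrn4), -0.561 with the venous and -0.531 with the arterial sum. The type 1 sum had a median of 1225 CPM in Glenn excess and 1479 in Glenn control, with overlapping ranges. The mesothelial sum had medians of 291 and 387 CPM there, also with overlap. Their part in the diet values of Clic3 was not tested. How much of the Clic5 and Clic3 levels came from epithelial RNA in the sorted cells was not tested.

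**Figure D3:**
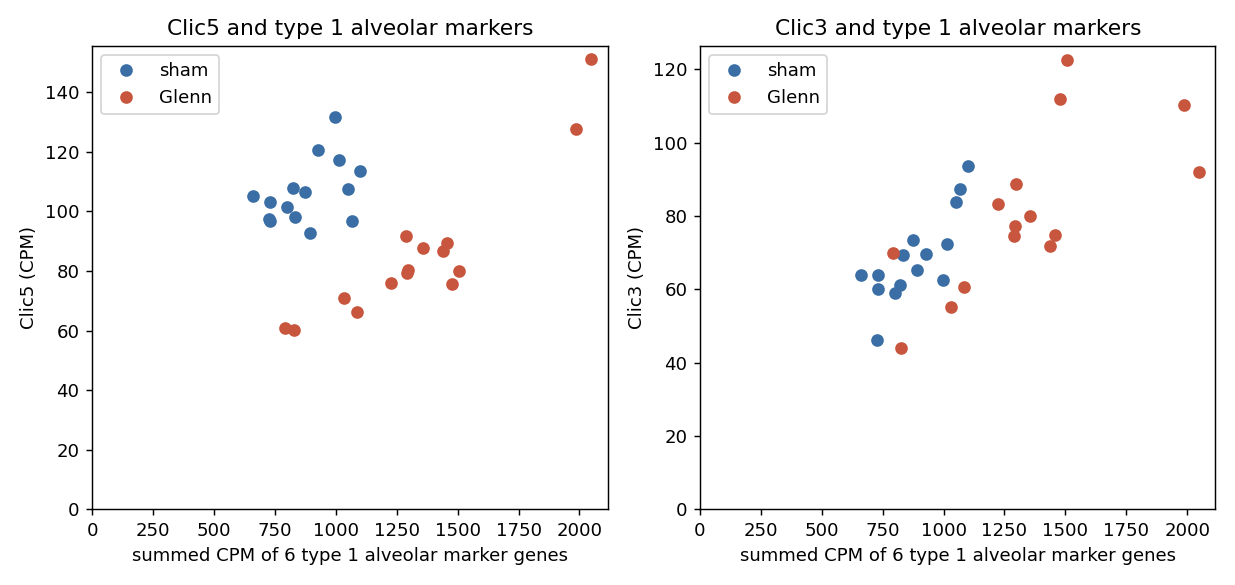
Clic5 (left) and Clic3 (right) in CPM against the summed CPM of 6 type 1 alveolar marker genes, 1 point per library, sham in blue and Glenn in red. Among Glenn libraries r was 0.904 for Clic5 and 0.748 for Clic3 on the log2 scale, and Glenn points for Clic5 lie below sham points at like sums.

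Markers of several other cell types differed between operations, as Clic2 did. Of 5 markers of general capillary cells 0 rose and 4 fell (sum 5611 to 8838 CPM after sham and 2430 to 5692 after Glenn), and all 5 fibroblast markers rose (311 to 784 and 570 to 1209 CPM). All 6 lymphatic markers rose after Glenn surgery (sum 1090 to 2004 CPM after sham and 2468 to 5101 after Glenn), and so did all 6 markers of mural cells, the pericytes and smooth muscle around vessels (126 to 255 and 341 to 1334 CPM). Of 7 general endothelial markers 2 rose and 4 fell (6900 to 8936 and 5255 to 7546 CPM), and of 6 markers of aerocytes, the capillary cells specialised for gas exchange, 1 rose and 4 fell (1828 to 3410 and 1231 to 1958 CPM). Kdr counts in the endothelial and the aerocyte list, and Pdpn in the lymphatic and the type 1 list. Over the 30 libraries r of Clic2 was -0.916 with the general capillary sum, 0.898 with the lymphatic, 0.856 with the mural, -0.831 with the aerocyte, -0.700 with the endothelial and 0.652 with the fibroblast sum. Those values share the contrast of operations. With group means subtracted, r was -0.163, 0.050, -0.445, 0.212, 0.178 and -0.047 in the same order. Over the 30 libraries r of Clic2 was also -0.743 with the leukocyte, -0.731 with the venous, 0.726 with the type 1 and -0.611 with the type 2 sum. With group means subtracted these were -0.373, -0.264, 0.400 and -0.350. Single genes weighed heavily in some sums. Lyz2, also known from type 2 cells, made up nearly all of the leukocyte sum (means 18435 CPM after sham and 12341 after Glenn surgery). Plvap was the largest part of the general capillary sum (5149 and 1563 CPM). No defining marker of these lists was at 0 in all libraries, and their part in the Clic2 values was not tested.

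Genes whose levels ran most alike to a member were ranked among 12717 genes by Pearson r of log2(CPM + 1) over the 30 libraries, which share library depth and the surgery contrast. Closest to Clic2 were Smad1 (r = 0.981), a signal transducer of BMP receptors, Tshz2 (0.980), a zinc-finger factor, and Prnd (0.980), a prion-like gene. Smad1 averaged 82.2 and 313 CPM after sham and Glenn surgery, Tshz2 4.63 and 21.3, and Prnd 0.771 and 47.5. With group means subtracted, the closest to Clic2 were Luc7l3 (0.719), Phip (0.704) and Polg2 (0.687). On that measure Smad1 kept an r of 0.609 and Tshz2 of 0.580, while Prnd had 0.109.

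For the other members the closest genes differed in kind. Clic1 ran with ribosomal protein genes, Rpl10a (r = 0.888), Rpl34 (0.883) and Rpl15 (0.883), and within groups with U2af1 (0.901), Pomp (0.890) and Rpl4 (0.883). Clic4 ran with Cbx3 (0.755), Impa1 (0.742) and the integrin gene Itgb1 (0.733), and within groups with Impa1 (0.759), Bnip2 (0.745) and Gulp1 (0.734). Clic5 ran with Hopx (0.805), Emp2 (0.755) and Nckap5 (0.742), and within groups with Ndnf (0.867), Gprc5a (0.846) and Cdkn2b (0.833). Clic3 ran with Pdk3 (0.853), Arhgap44 (0.844) and Large2 (0.834), and within groups with Cryab (0.868), Arhgap1 (0.857) and Fzd2 (0.838). Hopx, closest to Clic5, is the type 1 marker that fell after surgery.

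Between members, with group means subtracted (n = 30 libraries), r was -0.574 for Clic1 and Clic3, -0.518 for Clic3 and Clic4, 0.497 for Clic3 and Clic5, and 0.461 for Clic2 and Clic5. Clic2 and Clic5 had r = -0.489 without that subtraction. Clic2 and Clic5 thus varied together among libraries of a group, while their means lay apart in opposite directions between operations. Subtracting group means leaves differences by RT1-CE16 level and by series in these r values. The part of those differences was not tested.

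The genes beside a member in the RefSeq order (GRCr8, used for order only) gave a local comparison. Pseudogenes flank Clic2, and the next protein-coding gene, Tmlhe, named after its values were seen, stood at 43.1 ± 5.37 CPM after sham and 42.2 ± 3.89 after Glenn surgery (log2 change -0.02, SE 0.06, edgeR adjusted p = 0.784). Beside Clic1, Ddah2 (0.66, SE 0.31, edgeR adjusted p = 0.0754) and Msh5 (-0.31, edgeR adjusted p = 0.600) did not pass. Beside Clic3, Paxx, a DNA repair gene, fell from 13.9 to 10.9 CPM (-0.35, SE 0.06, edgeR adjusted p = 2.48e-05). Abca2 did not pass for surgery (0.06, edgeR adjusted p = 0.458) but was higher in RT1-CE16-high libraries (0.28, edgeR adjusted p = 0.0044), as Clic3 was. The other neighbours named here did not pass for the RT1-CE16 level. Paxx stood at -0.06 there, and Ddah2 and Msh5 beside Clic1 at -0.44 and -1.22 (edgeR adjusted p = 0.651, 0.473 and 0.109). Near Clic5, Enpp4, also named after its values were seen, fell from 297 ± 41.3 to 161 ± 16.2 CPM (-0.86, SE 0.06, edgeR adjusted p = 1.94e-13), while Runx2 on its other side did not pass (-0.40, SE 0.34, edgeR adjusted p = 0.353). The nearest protein-coding genes of Clic4 did not pass (Srrm1 at -0.05 and Runx3 at -1.01, edgeR adjusted p = 0.365 and 0.178). Those of Clic6 did, with Rcan1 higher (0.15, edgeR adjusted p = 0.0349) and Runx1 lower (-0.22, edgeR adjusted p = 0.0292). Neither held without Glenn excess replicate 1 (0.11 and -0.17, edgeR adjusted p = 0.110 and 0.0803). Rcan1 was also lost without the series term, without Glenn control replicate 1 or 2, Glenn deficient replicate 1, sham control replicate 4, sham deficient replicate 1 or 5, or sham excess replicate 2 (adjusted p = 0.0513 to 0.0735), and Runx1 without Glenn deficient replicate 2 or 3 or sham excess replicate 3 (0.0528 to 0.0667). These 5 genes were also named after their values were seen.

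Proteins known to bind or act beside CLIC proteins moved in both directions after Glenn surgery. Of 36 listed partner genes 34 were tested, and 18 (52.9%) passed for surgery averaged over diets, 6 higher and 12 lower, where 48.2% of all genes passed (23.4% higher, 24.7% lower). Their median log2 change was -0.05, against -0.01 for all genes. The receptor S1pr3 rose from 13.2 ± 3.20 to 47.6 ± 16.1 CPM (1.83 on the log2 scale, SE 0.17, edgeR adjusted p = 7.39e-10). The membrane protease Mmp14 rose from 46.2 ± 7.28 to 96.1 ± 13.7 CPM (1.05, SE 0.06, edgeR adjusted p = 3.93e-15), and the actin monomer binder Pfn1 rose by 0.33 (SE 0.05). The BMP receptor Bmpr2 fell from 642 ± 63.6 to 259 ± 33.3 CPM (-1.30, SE 0.06, edgeR adjusted p = 7.92e-17). The inhibitory SMAD gene Smad7 fell from 116 ± 31.3 to 31.2 ± 10.1 CPM (-1.94, SE 0.15, edgeR adjusted p = 1.62e-11), and the motor Myo6 fell by 0.57 (SE 0.06).

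The actin linkers on that list differed among themselves. Moesin (Msn) rose by 0.26 on the log2 scale and radixin (Rdx) fell by 0.36 (edgeR adjusted p = 5.79e-05 and 2.36e-08), while ezrin (Ezr) stood at -0.16 and did not pass (adjusted p = 0.0825). The scaffold genes Nherf1 and Nherf2 fell by 0.27 and 0.31. Ezr and Rdx were also the only genes of the 3 lists that passed for diet after Glenn surgery (edgeR adjusted p = 0.0443 and 0.0297), where 0.538% of all genes passed, and no listed gene passed for diet after sham or for the interaction.

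Other chloride channels and transporters were likewise split. Of 40 listed genes 32 were tested and 22 (68.8%) passed, 8 higher and 14 lower, where 48.2% of all genes passed (23.4% higher, 24.7% lower). The median was -0.07, against -0.01 for all genes. The volume-regulated channel subunit Lrrc8b fell from 122 ± 10.4 to 69.6 ± 6.35 CPM (-0.81, SE 0.05, edgeR adjusted p = 7.56e-14). Ano5, an anoctamin, fell from 5.80 to 1.25 CPM (-2.21, SE 0.25), and the cotransporter Slc12a4 from 129 to 106 CPM (-0.28, SE 0.04). Clca2 rose from 3.08 to 6.95 CPM (1.30, SE 0.16), Ttyh2 from 2.02 to 3.88 (0.92, SE 0.18) and Ano4 from 0.909 to 1.94 (1.07, SE 0.23), all at low levels.

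Genes of the glutathione S-transferase, glutaredoxin and thioredoxin systems, called the thiol-fold list, showed no common direction either. Txnrd1, Txnrd2, Gsr, Mgst1 and Mgst3 are on it by function and not as relatives by fold. Of 24 listed genes 23 were tested and 13 (56.5%) passed, 8 higher and 5 lower, a share near the 48.2% of all genes (23.4% higher, 24.7% lower). The median was 0.00, against -0.01 for all genes. Glutaredoxin (Glrx) rose by 0.86 on the log2 scale (SE 0.10), thioredoxin reductase (Txnrd1) from 65.7 to 88.4 CPM (0.41, SE 0.05) and Gsta4 from 18.4 to 36.9 (0.93, SE 0.14). Thioredoxin (Txn1) fell from 140 to 107 CPM (-0.37, SE 0.06), Gstm1 from 29.3 to 24.7 (-0.25, SE 0.08) and Gstz1 by a smaller step (-0.14, SE 0.05). Gstz1 no longer passed in series A alone (-0.13, edgeR adjusted p = 0.119).

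**Figure D4:**
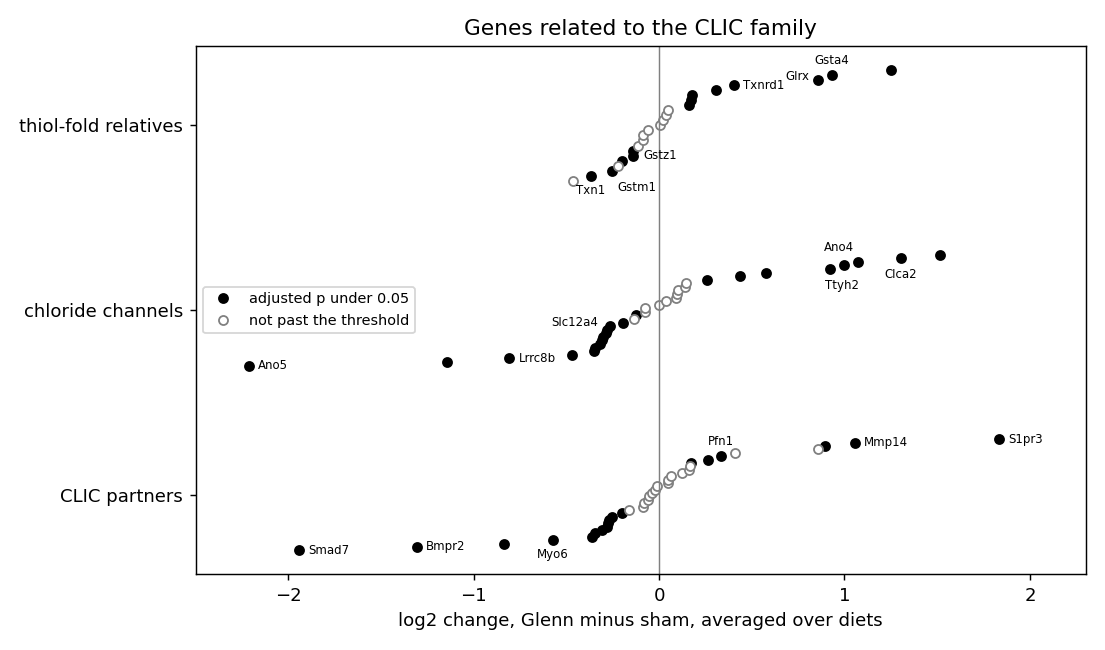
Log2 change of each tested gene of the partner, chloride channel and thiol-fold lists, Glenn minus sham averaged over diets (horizontal axis), sorted within each list. Some genes of the thiol-fold list do not share that fold. Filled points passed an adjusted p of 0.05 (18 of 34, 22 of 32 and 13 of 23), and points lie on both sides of 0 in every list.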

How the data were processed

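RNA was measured in 30 libraries of CD31+ rat lung cells. The deposited values are estimated counts, 1 column per library, and 0 other columns were left out. The submitters' processing notes name FastQC, Trim Galore, Picard, STAR, Salmon and the build mRatBN7.2 (rn7), without roles or versions. The annotation and whether counting used strand are not given in the sources used here. RNA was made into libraries with a SMART-Seq low-input kit, per the labels' protocols.

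Estimated counts were rounded, genes were kept by filterByExpr (minimum count 10, minimum total 15), and TMM scaling was applied (factors 0.94 to 1.06). One edgeR 4.0.16 quasi-likelihood fit held the 6 groups and the library series, and p-values were adjusted by Benjamini-Hochberg over all 16171 genes, with a threshold of 0.05. RT1-CE16 was called high above 100 CPM. Likeness between genes used log2(CPM + 1). Alternatives used DESeq2 1.42.0, limma 3.58.1 voom with quality weights and other terms, and R 4.3.3 and matplotlib 3.10.9 were used. The steps were tested on simulated data. Of 200 genes given a 2-fold change, edgeR recovered 160 for averaged surgery, 131 for diet after Glenn surgery and 105 for the interaction. False calls numbered 6, 3 and 0. A gene that did not pass may thus still have changed. Within groups, the 60 pairs of libraries had a chi-square per degree of freedom of 20.5 to 122, so none agreed within sampling noise.

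The members, lists and tests were chosen with earlier results of these data known. The rule for named genes took the 6 members, up to 3 genes per direction of each list with the smallest adjusted p and at least 1 CPM, the 3 genes most alike to each member on both measures, the next gene on each side and the cell type markers. Ezr, Rdx, Msn, Nherf1 and Nherf2 were named after their values were seen. The RefSeq table matched 6 of 6 members and 24839 of 30562 rows.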

Additional observations from a re-analysis of the deposited data

Results flagged for a closer look

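Of 36 sets of 5 libraries (6 members in 6 groups), in 3 a single library stood apart, and chance gives about 1 in 20, or 1.8 sets. In Glenn control, Clic5 was 151 CPM in replicate 1 against 60.7 to 80.4 in the others, a gap of 0.781 of the group's range. In sham excess, Clic3 was 46.1 CPM in replicate 2 against 60.0 to 63.9 (0.782 of the range). In Glenn excess, Clic4 was 588.5 CPM in replicate 1 against 489.8 to 516 (0.734 of the range). The critical value for 5 libraries is 0.71.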

How the results depend on the processing

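The direction of the averaged surgery change was kept in all 39 alternatives for Clic1, Clic2, Clic3, Clic5 and Clic6, and turned for Clic4 in series A alone. Within diets, the direction turned for Clic3 with excess in 6 of 40 alternatives and for Clic4 under deficiency in 13 of 40. Clic3 for diet after Glenn surgery passed by DESeq2 (adjusted p 0.00689) and in series A (0.0391), with 0.0241 to 0.392 when 1 library was left out. Its excess minus control value did not pass without the series term (-0.52) or with the replicate block (-0.58), and ranged from -0.86 to -0.62 with 1 library left out. Replicate numbers did not meet the rule for pairing (median r of same-numbered libraries 0.0554, over 0.1 in 25 of 75 pairs, with 16 of 30 libraries closest to their own number), so the block is given only here. That 16 libraries sit closest to their own number is a hint from the data, and replicates 1 and 2 were RT1-CE16-low in all 6 groups. Ddx3y was high in replicate 1 and low in replicate 2 of all 6 groups.

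Counts of genes called moved with the fit, and the causes were not tested. In series A alone, 2553 genes were called for surgery under deficiency and 2270 with excess. Diet after sham gave 202 genes by DESeq2, 43 by limma voom, 37 with the replicate block and 14 in series A (0 to 10 with 1 library left out). Diet after Glenn gave 384 by DESeq2, 26 with the RT1-CE16 level, 169 by limma voom, 54 with no filter, 6 with no series term, 12 with the block and 155 in series A (2 to 333). The interaction gave 35, 0, 5, 2, 0, 2 and 4 in that order (0 to 14). The series term gave 0 with the block (75 to 314 with 1 library left out). Excess minus control after Glenn gave 524 by DESeq2, 78 with the RT1-CE16 level, 19 with no series term and 34 with the block (2 to 557). In series A the chloride list had 5 genes higher and the thiol list 3 lower (3 to 6 with 1 library left out). Tmlhe ranged from -0.038 to 0.0054 with 1 library left out, turning without Glenn control replicate 5, and Abca2 to -0.019, Runx2 to 0.076 and Runx3 to 0.32 in series A. Counts of 3 or fewer limit Clic6, whose direction on the deficient diet turned in series A.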
